A study of Mus musculus with 18 samples.

Results

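The genes described here encode the subunits of the proteasome, its immune-cell variant and its activators, measured by RNA sequencing in mouse CD8 T cells. They were chosen by symbol: every gene of the deposited table whose symbol was Psm, one of the letters a to g and a number. The table held 48 such genes among 46983, and 46 of them reached 10 in 4 or more of the 18 libraries, as did 9437 genes in all. The other two were Psma8, the alpha subunit of testis proteasomes, listed at 0 in all 18 libraries, and Psmb11, the catalytic subunit of thymus epithelium, whose highest value was 2.52. The member nearest to the limit from within was Psmg3, which reached 10 in 13 libraries. The cells were sorted by the adhesion receptor CD44 into naive (low) and memory (high) cells. Wild-type mice gave 4 libraries of each kind, and mice carrying the Hsd allele of Dock2 on both chromosomes, called Dock2-deficient below, gave 5 of each kind. Dock2 encodes an activator of the small GTPase Rac in blood cells, and the allele is carried by the whole animal. All libraries carried C57BL/6J as their strain, whereas descriptions of the Dock2-deficient ones carried the name C57L6NHsd, so substrain and genotype cannot be told apart. Age was not given in the labels, and nothing said that the libraries of a group came from separate animals, so p-values measure only how far libraries differ, which may be technical.

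The proteasome is the barrel-shaped protease that degrades ubiquitin-tagged proteins in the cytosol and nucleus. Its 20S core is a stack of rings of alpha subunits, which gate the channel, and beta subunits, of which Psmb5, Psmb6 and Psmb7 carry the active sites; the 19S cap binds, unfolds and feeds in the substrate. In lymphocytes, and elsewhere after interferon gamma, Psmb8, Psmb9 and Psmb10 replace Psmb5, Psmb6 and Psmb7 in newly built cores and give the immunoproteasome, which shapes the peptides shown on MHC class I. The PA28 activator, made of Psme1 and Psme2, opens the core without ubiquitin and is likewise induced by interferon gamma.

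Values, here called normalized counts, read as RSEM expected counts divided by a factor of each library, which no source used here states. On that reading, library depth ranged from 2215987 to 8257768 expected reads, of which the ribosomal RNA gene Rn18s-rs5 took 37.0% to 69.4%, leaving 850659 to 2830470 reads for all other genes. Dock2 itself, as a check of the labels, ranged from 288 to 844 in the 8 wild-type libraries and from 61.0 to 373 in the Dock2-deficient ones, with a log2 fold change of -0.71 in naive and -1.64 in memory cells (limma adjusted p = 0.841 and 0.121). All 9 CD8 T cell markers (Cd3d, Cd3e, Cd3g, Trac, Trbc1, Trbc2, Cd8a, Cd8b1, Cd2) passed the filter, whereas Cd4 was at most 7.47, Ms4a1 at most 3.33 and Adgre1, Pf4 and Ppbp at 0 in every library. Other genes of these lists were present: Ighm averaged 465 to 702 by group, Igkc reached 550.3, Itgax 68.0, Itgam 41.1 and Hba-a2 112. Of the B cell list, 3 of 7 genes passed the filter, of the myeloid list 2 of 8, of the CD4 and regulatory T cell list 1 of 5, of the gamma delta and NKT cell list 3 of 7 and of the erythroid and platelet list 1 of 6, whose sum reached 329.5 in Dock2-deficient naive library 2. In bulk libraries such as these, fewer cells of a type and less RNA per cell cannot be told apart. By Xist, all wild-type libraries and replicate 1 of both Dock2-deficient groups were female and the other Dock2-deficient libraries male, so sex and genotype were largely confounded. An earlier analysis of these data found 2 libraries to stand apart, the fourth of wild-type memory and Dock2-deficient memory library 5.

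Stretches of 250 bases upstream of the RefSeq start (GRCm38.p6) are printed for the genes that form the core of the comparison and hold one of the motifs searched. Psmb8 is shown as the one gene among Psmb8, Psmb9, Psmb10, Psme1 and Psme2 whose window held the letters of an interferon gamma activated site (TTCNNNGAA), in capitals, at chr17:34197945-34198194 (plus strand). Psmb5 at chr14:54617996-54618245 (minus strand) and Psmb6 at chr11:70525107-70525356 (plus strand) are the constitutive genes whose windows held the core of the antioxidant response element (TGACNNNGC), the sequence bound by the stress factors Nrf1 and Nrf2, in capitals. Psmb7, the remaining constitutive catalytic gene, had no window and was not searched.
Psmb8: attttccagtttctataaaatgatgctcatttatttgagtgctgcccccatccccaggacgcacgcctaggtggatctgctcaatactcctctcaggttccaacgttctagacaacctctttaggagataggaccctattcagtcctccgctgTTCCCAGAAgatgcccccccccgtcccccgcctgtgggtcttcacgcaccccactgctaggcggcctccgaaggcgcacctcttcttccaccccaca
Psmb5: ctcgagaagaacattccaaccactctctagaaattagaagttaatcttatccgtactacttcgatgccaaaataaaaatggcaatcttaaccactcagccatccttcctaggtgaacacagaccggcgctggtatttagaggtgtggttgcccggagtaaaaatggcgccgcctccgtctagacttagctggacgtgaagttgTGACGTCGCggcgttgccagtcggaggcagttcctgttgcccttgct
Psmb6: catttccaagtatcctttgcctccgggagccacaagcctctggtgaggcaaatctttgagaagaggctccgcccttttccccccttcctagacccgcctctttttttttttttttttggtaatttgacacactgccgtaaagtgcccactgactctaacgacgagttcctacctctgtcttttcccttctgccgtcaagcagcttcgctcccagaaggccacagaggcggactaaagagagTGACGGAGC

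Motifs were searched on both strands from 250 bases before to 50 after the RefSeq start, in 43 windows of 40 member genes (those matched by symbol) and in all 32851 windows of the table. The TTCNNNGAA site was found in 3 member genes (Psmb8, Psmd2 and Psmg1), or 6.98% of their windows, and in 8.3% of all windows. An interferon regulatory factor element, GAAANNGAA, was found in 7 (Psmb3, Psmb4, Psmc2, Psmd4, Psmd9, Psme1 and Psmg4), or 16.3% of the members' windows, and in 8.56% of all windows. The TGACNNNGC core was found in 6 (Psmb5, Psmb6, Psmc6, Psmd12, Psmd9 and Psme4), or 13.95% of the members' windows, and in 12.4% of all windows. The ETS element CCGGAAG, bound by a family of broadly expressed activators, was found in 14 member genes, or 34.9% of their windows against 8.86% of all. None of those genes was a catalytic subunit, but Psmb7 had no window to search. The window of Psmb9, which held none of the 4 motifs, shared 275 of its 300 bases with that of Tap1, the peptide transporter gene on the opposite strand. The window of Tap1 spanned 34187306 to 34187605 on chromosome 17. A match describes the letters in a window and not binding. The windows of Psmb8, Psmb9 and Psme1 lay wholly within the GENCODE M21 bounds of these genes given below, so a match depends on the start chosen.

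Levels between genes were compared per kilobase of the gene's longest principal transcript in GENCODE M21, averaged over the 18 libraries. The activator gene Psme1 (499 per kilobase) and the immunosubunit gene Psmb8 (469) ranked first and second among the members, followed by Psme2 (293) and the structural beta subunit gene Psmb1 (261). By role, the median level was 99.99 per kilobase for the 7 genes of the alpha ring and 176 for the 4 structural beta subunits. It was 121 for the 3 constitutive catalytic genes, 123 for the 3 immunosubunit genes and 150 for the 4 activators. The 6 ATPases of the 19S cap that unfold the substrate had a median of 55.1, and the cap's 11 other subunits 45.8. That of the 8 assembly chaperones and modulators was 21.7. The lowest members were the PA200 gene Psme4 (3.18), whose product caps proteasomes in the nucleus and in sperm cells, and the nuclear activator gene Psme3 (8.11). The median within-group SD of a member was 0.35 on the log2 scale, against 0.56 over all 9437 genes, which were not matched to the members for level. A value of 50 in at least 4 libraries was reached by 38 of the 46 members and by 4677 of all genes.

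**Figure D1:**
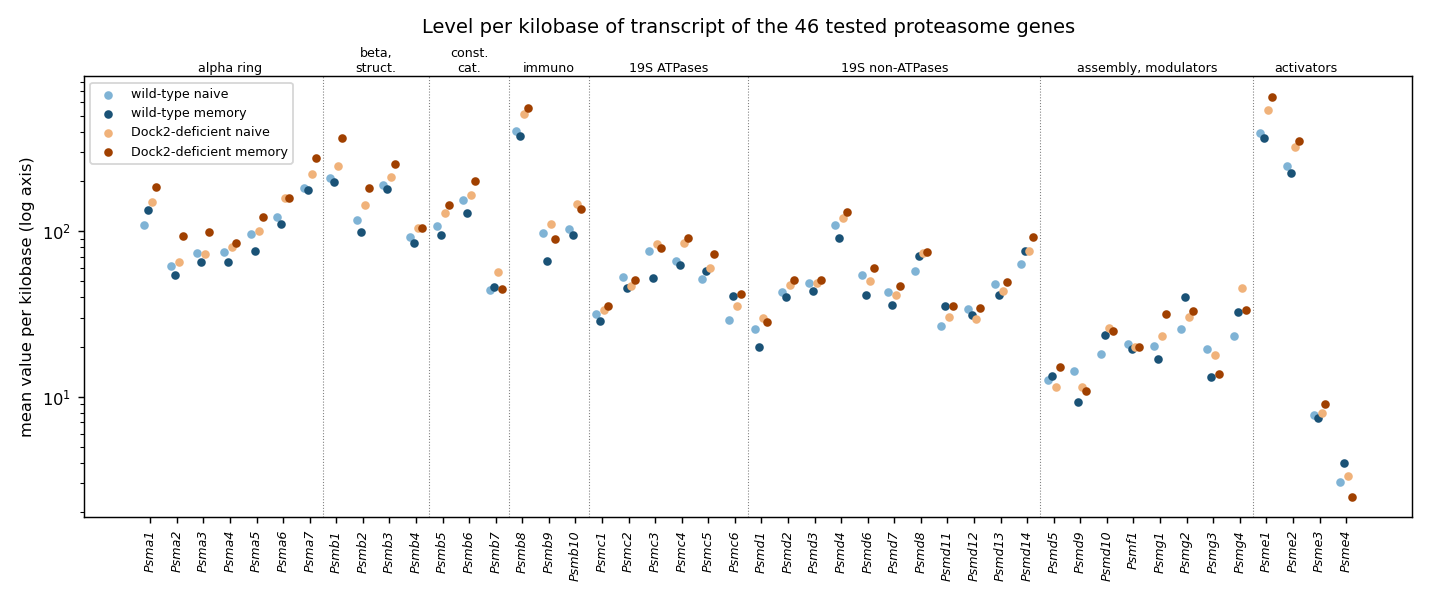
Mean normalized count per kilobase of transcript (log axis) of the 46 tested genes, one point per group, ordered by role. Psme1 and Psmb8 lie highest in all 4 groups, and the points of a gene lie close together compared with the range from Psme4 to Psme1.

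Among catalytic subunits, Psmb8 exceeded its constitutive counterpart Psmb5 in every library, and Psmb10 exceeded Psmb7, whereas Psmb9 did not exceed Psmb6 per kilobase. Psmb8 (ENSMUSG00000024338, chromosome 17, 34197721 to 34201454, plus strand, mm10) encodes the chymotrypsin-like immunosubunit. It measured 501, 568, 792 and 774 normalized counts in wild-type naive libraries 1 to 4 and 653, 550.3, 605 and 654 in wild-type memory libraries. It measured 695, 822, 614, 1158 and 854 in Dock2-deficient naive libraries 1 to 5 and 557, 832, 1033, 566 and 1513 in Dock2-deficient memory libraries. The groups overlapped throughout, and the highest value, in Dock2-deficient memory library 5, was above all others. Group means were 659 ± 146, 616 ± 49.2 (SD, n = 4 each), 829 ± 208 and 900.4 ± 396 (SD, n = 5 each).

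Psmb5 (ENSMUSG00000022193, chromosome 14, 54614119 to 54618022, minus strand), the constitutive chymotrypsin-like subunit, measured 74.3, 97.6, 115 and 98.6 in wild-type naive and 83.7, 80.6, 85.1 and 92.7 in wild-type memory libraries. It measured 75.5, 127, 95.2, 142 and 139 in Dock2-deficient naive and 103, 97.6, 131, 109 and 211 in Dock2-deficient memory libraries. All 5 Dock2-deficient memory libraries lay above all 4 wild-type memory libraries, but Psmb5 missed the threshold with a log2 fold change of 0.54 ± 0.24 (SE; limma adjusted p = 0.291). Per kilobase, the ratio of Psmb8 to Psmb5 was 3.76 ± 0.46 in wild-type naive, 3.97 ± 0.23 in wild-type memory, 4.02 ± 0.74 in Dock2-deficient naive and 3.78 ± 0.82 in Dock2-deficient memory libraries (SD), with overlapping ranges. The size of such a ratio depends on the gene length used: with the union of all annotated exons it was 1.81 in wild-type naive libraries.

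Psmb9 (ENSMUSG00000096727, chromosome 17, 34181987 to 34187764, minus strand), the caspase-like immunosubunit, measured 101, 139, 159 and 131 in wild-type naive and 92.8, 81.2, 69.6 and 115 in wild-type memory libraries. It measured 117, 128, 127, 203 and 169 in Dock2-deficient naive and 88.8, 127, 115, 98.5 and 175 in Dock2-deficient memory libraries. Its memory mean was the lower one in both genotypes, with log2 fold changes of -0.56 ± 0.24 (limma adjusted p = 0.34) in wild type and -0.31 ± 0.22 (adjusted p = 0.59) in Dock2-deficient cells, and the groups overlapped. Among members with a mean of at least 50, it had the lowest estimate for memory against naive in wild type. Its exons share 212 bases with those of Tap1 on the other strand, and the library method does not mark strand, so reads from that stretch cannot be assigned with certainty; Tap1 averaged 348. Psmb6 (ENSMUSG00000018286, chromosome 11, 70525367 to 70527858, plus strand), the constitutive counterpart, measured 105, 107, 129 and 154 in wild-type naive and 117, 92.6, 119 and 83.9 in wild-type memory libraries. It measured 107, 105, 108, 200.1 and 145 in Dock2-deficient naive and 162, 144, 172, 112 and 218 in Dock2-deficient memory libraries. The ratio of Psmb9 to Psmb6 per kilobase averaged 0.64 ± 0.13, 0.54 ± 0.20, 0.67 ± 0.05 and 0.45 ± 0.09 in wild-type naive and memory and Dock2-deficient naive and memory libraries (SD). It lay from 0.60 to 0.72 in the Dock2-deficient naive libraries and from 0.32 to 0.52 in the Dock2-deficient memory libraries, which do not overlap; this pair was singled out after its values were seen and was not tested.

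Psmb10 (ENSMUSG00000031897, chromosome 8, 105935735 to 105938444, minus strand), the trypsin-like immunosubunit, measured 110.1, 134, 123 and 177 in wild-type naive and 121, 101, 111 and 165 in wild-type memory libraries. It measured 163, 165, 142, 279.9 and 203 in Dock2-deficient naive and 140.2, 179, 179, 117 and 284 in Dock2-deficient memory libraries. Among members with a mean of at least 50 it had the largest estimate for Dock2-deficient over wild-type naive cells, 0.46 ± 0.25 on the log2 scale, and did not pass (limma adjusted p = 0.872). Psmb7 (ENSMUSG00000026750, chromosome 2, 38588036 to 38644087, minus strand), the constitutive counterpart, measured 45.7, 41.6, 61.5 and 55.3 in wild-type naive and 36.5, 29.6, 47.7 and 98.8 in wild-type memory libraries. It measured 58.2, 67.9, 68.6, 77.0 and 56.8 in Dock2-deficient naive and 55.0, 50.6, 53.3, 57.9 and 44.2 in Dock2-deficient memory libraries. The value of 98.8 belonged to the wild-type memory library that stands apart, and was more than any other value of Psmb7. The ratio of Psmb10 to Psmb7 per kilobase was 2.40 ± 0.53, 2.37 ± 0.74, 2.57 ± 0.61 and 3.16 ± 1.51 in the same order of groups (SD).

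**Figure D2:**
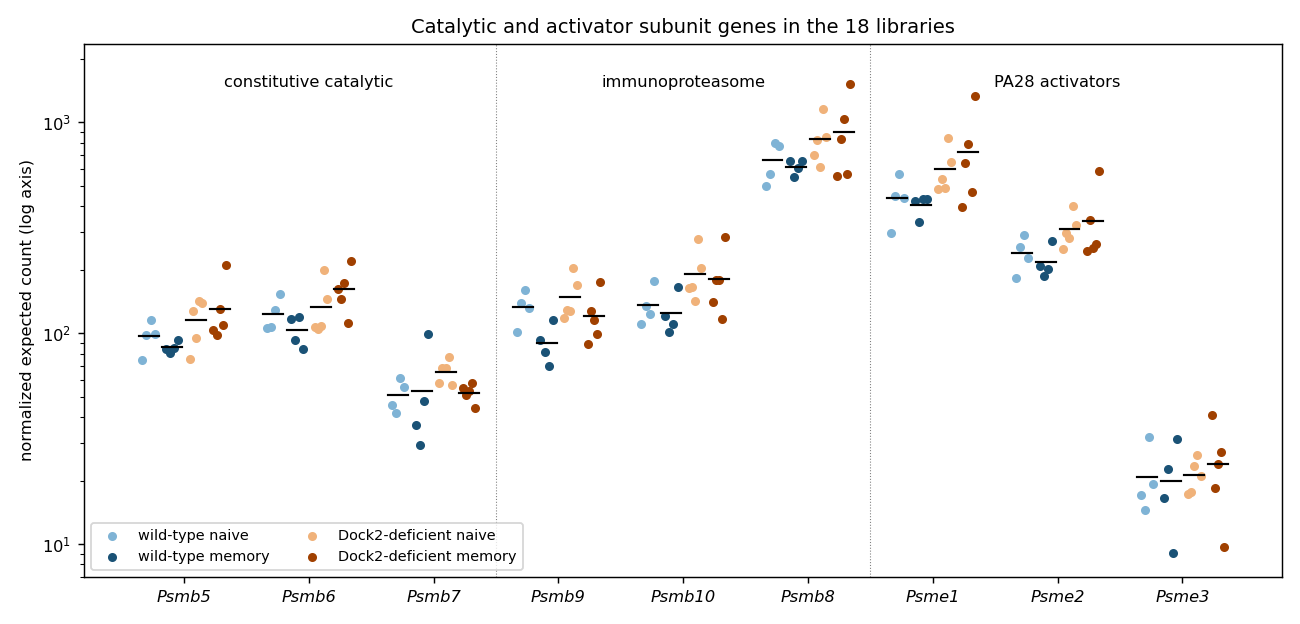
Normalized count (log axis) of the 3 constitutive catalytic, 3 immunoproteasome and 3 PA28 genes in each of the 18 libraries, coloured by group, with lines at group means. Psmb8 and Psme1 lie highest, Psme3 lowest, and between genotypes in the same state, or between states in the same genotype, only Psmb5 in memory cells shows groups that do not overlap; the highest points of Psmb8, Psme1 and Psme2 are those of Dock2-deficient memory library 5.

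As a summary of the 3 pairs, the mean log2 value of Psmb8, Psmb9 and Psmb10 minus that of Psmb5, Psmb6 and Psmb7 was 1.41 ± 0.10 in wild-type naive, 1.32 ± 0.17 in wild-type memory, 1.50 ± 0.13 in Dock2-deficient naive and 1.34 ± 0.32 in Dock2-deficient memory libraries (SD). The differences between groups were -0.09 for memory against naive in wild type, -0.16 for the same in Dock2-deficient cells, 0.09 for genotype (Dock2-deficient minus wild type) in naive cells and 0.02 in memory cells. Each was no more than the SD over libraries of one of its groups, and all pairs of groups overlapped. The last of these differences turned to -0.12 under quantile normalization and to -0.08 without the 2 libraries that stood apart. No test was made on this score, since its genes were chosen with results known.

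The PA28 genes Psme1 and Psme2 had higher means in both Dock2-deficient groups than in wild type, without passing the test. Psme1 (ENSMUSG00000022216, chromosome 14, 55578123 to 55581529, plus strand) measured 297.9, 447, 566 and 435 in wild-type naive and 421, 338, 432 and 431 in wild-type memory libraries. It measured 482, 535, 489, 845 and 644 in Dock2-deficient naive and 398, 641, 784, 467 and 1335 in Dock2-deficient memory libraries. The log2 fold change for Dock2-deficient against wild type was 0.46 ± 0.28 in naive and 0.71 ± 0.28 in memory cells (limma adjusted p = 0.913 and 0.265), and the groups overlapped in both. Psme2 (ENSMUSG00000079197, chromosome 14, 55587441 to 55591113, minus strand) measured 181, 256, 291 and 227 in wild-type naive and 207, 186, 201 and 273 in wild-type memory libraries. It measured 251, 296.6, 282, 399.5 and 324 in Dock2-deficient naive and 245, 344, 252, 266 and 584 in Dock2-deficient memory libraries. These groups also overlapped, with log2 fold changes of 0.38 ± 0.24 and 0.57 ± 0.24 (limma adjusted p = 0.916 and 0.274). RSEM shares reads between Psme2 and its near-copy Psme2b, which averaged 16.5 to 31.7 by group, so both are uncertain to that extent.

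Psme3, which encodes the PA28 subunit of the nucleus, measured 17.1, 14.5, 32.1 and 19.2 in wild-type naive and 16.6, 22.7, 9.02 and 31.5 in wild-type memory libraries. It measured 17.3, 17.7, 23.6, 26.5 and 20.9 in Dock2-deficient naive and 40.8, 18.5, 24.1, 27.2 and 9.73 in Dock2-deficient memory libraries. Its groups overlapped in every comparison, with log2 fold changes from -0.12 to 0.25. In Dock2-deficient memory library 5, where Psme1 and Psme2 were highest, Psme3 had the lowest value of its group.

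In wild-type cells the proteasome genes differed little between naive and memory. None of the 46 passed an adjusted p of 0.05 in limma's moderated test, where 2.52% of all genes did, and 3 passed at an unadjusted p of 0.05, where 12.1% of all genes did: 1 higher (6.79% of all genes) and 2 lower (5.29%). These were Psmg2, a core assembly chaperone gene (log2 fold change 0.61 ± 0.24), the 19S ATPase gene Psmc3 (-0.54 ± 0.20) and Psmb9, with limma adjusted p-values of 0.278, 0.207 and 0.34. The median log2 fold change was -0.13 over the members and -0.02 over all genes. Of the 46 members, 11 (23.9%) were above 0 and 35 below, whereas 47.9% of all genes were above 0. The groups did not overlap in Psmg2, which was the higher in memory (4.99% of all genes in that direction), and in Psmc3, which was the lower (3.27%). Psmc6, another 19S ATPase gene, had the largest higher estimate among members with a mean of at least 50: it measured 62.8, 70.5, 86.6 and 41.8 in wild-type naive and 82.1, 71.2, 82.5 and 126 in wild-type memory libraries (0.47 ± 0.27, limma adjusted p = 0.525). The groups overlapped, and the value of 126 again came from wild-type memory library 4.

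In Dock2-deficient cells, 0 of 46 members passed the adjusted threshold for memory against naive (2.82% of all genes), and 0 passed at an unadjusted p of 0.05 (13.4% of all genes, 6.96% higher and 6.39% lower). All 46 members overlapped between the groups, where 2.35% of all genes were higher and 1.58% lower without overlap. The median log2 fold change was 0.12 over the members, 35 of them above 0 (49.3% of all genes), and -0.01 over all genes, and it turned to -0.21 when libraries were scaled to equal totals without Rn18s-rs5, a scaling that moved the median of all genes to -0.32. Psmb1, a structural beta subunit gene, had the largest higher estimate among members with a mean of at least 50. It measured 314, 450.4, 313.4, 621 and 469 in Dock2-deficient naive and 382, 576, 825, 452 and 980.1 in Dock2-deficient memory libraries (0.53 ± 0.26, limma adjusted p = 0.392), with overlap. Psmb7 had the lowest estimate among the same members (-0.32 ± 0.26, limma adjusted p = 0.638).

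Between genotypes in naive cells, 0 of 46 members passed the adjusted threshold (0.138% of all genes) and 1 passed at an unadjusted p of 0.05 (6.1% of all genes, 3.14% higher and 2.97% lower). That was Psmg4, a core assembly chaperone gene, whose Dock2-deficient libraries all lay above the wild-type ones, as in 1.46% of all genes, and no member lay wholly below (1.25% of all genes). Its log2 fold change was 0.89 ± 0.33 (limma adjusted p = 0.595). The median log2 fold change was 0.19 over the members against 0.00 over all genes, with 35 members above 0 where 50% of all genes were, and it turned to -0.04 with sex as a term in the fit. The largest lower estimate among members with a mean of at least 50 was that of Psmd12, a scaffold subunit gene of the 19S lid. It measured 57.8, 45.2, 74.1 and 81.3 in wild-type naive libraries, against 54.6, 44.8, 37.9, 70.6 and 73.7 in Dock2-deficient naive libraries (-0.20 ± 0.23, limma adjusted p = 0.982), with overlap.

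Between genotypes in memory cells, nearly the whole set had a higher mean in the Dock2-deficient group, yet no member passed after adjustment. Of the 46 genes, 44 had a log2 fold change above 0, where 50.9% of all genes did, and the 2 below were Psmg2 (-0.28) and Psme4 (-0.71). None passed an adjusted p of 0.05 (0.053% of all genes did), and 17 passed at an unadjusted p of 0.05, all higher, where 16.4% of all genes did, 7.92% higher and 8.47% lower. The median log2 fold change was 0.39 over the members against 0.01 over all genes; it was 0.15 with equal totals without Rn18s-rs5, where the median of all genes was -0.23, and 0.19 with sex as a term. By role, the median was 0.64 for structural beta subunits, 0.54 each for the alpha ring and the constitutive catalytic subunits, 0.45 for immunosubunits, 0.41 for activators, 0.32 for 19S ATPases, 0.25 for the other 19S subunits and 0.11 for assembly chaperones and modulators.

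The member with the smallest p was Psmb2, a structural beta subunit gene (ENSMUSG00000028837, chromosome 4, 126677630 to 126709714, plus strand). It measured 105, 71.8, 79.9 and 81.3 in wild-type memory and 117, 159, 168, 127 and 209.6 in Dock2-deficient memory libraries. The groups did not overlap, with means of 84.6 ± 14.4 (SD, n = 4) and 156 ± 36.7 (SD, n = 5), and the log2 fold change was 0.86 ± 0.23 (limma adjusted p = 0.228). In naive cells Psmb2 measured 70.5, 97.6, 122 and 113 in wild-type libraries, against 93.7, 109, 116, 176 and 128 in Dock2-deficient ones, with overlap. In all, the memory groups did not overlap in 5 members (Psmb2, Psmc3, Psma3, Psmb5 and Psmd6), all higher in Dock2-deficient cells, where 2.06% of all genes did so in that direction and 2.38% in the other. Other members with an unadjusted p under 0.05 were, among the rings, Psma2 (0.72), Psma5 (0.69), Psma7 (0.57), Psma6 (0.50), Psmb1 (0.80), Psmb3 (0.48) and Psmb6 (0.63), the PA28 genes Psme1 (0.71) and Psme2 (0.57), the assembly chaperone gene Psmg1 (0.87) and, in the 19S cap, the ubiquitin receptor gene Psmd4 (0.51) and the base scaffold gene Psmd1 (0.51). The immunosubunit genes Psmb8 (0.45 ± 0.26), Psmb9 (0.41 ± 0.23) and Psmb10 (0.49 ± 0.25) did not reach it (limma adjusted p = 0.386, 0.369 and 0.337). The estimates of the constitutive genes Psmb5, Psmb6 and Psmb7 were 0.54, 0.63 and 0.13.

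**Figure D3:**
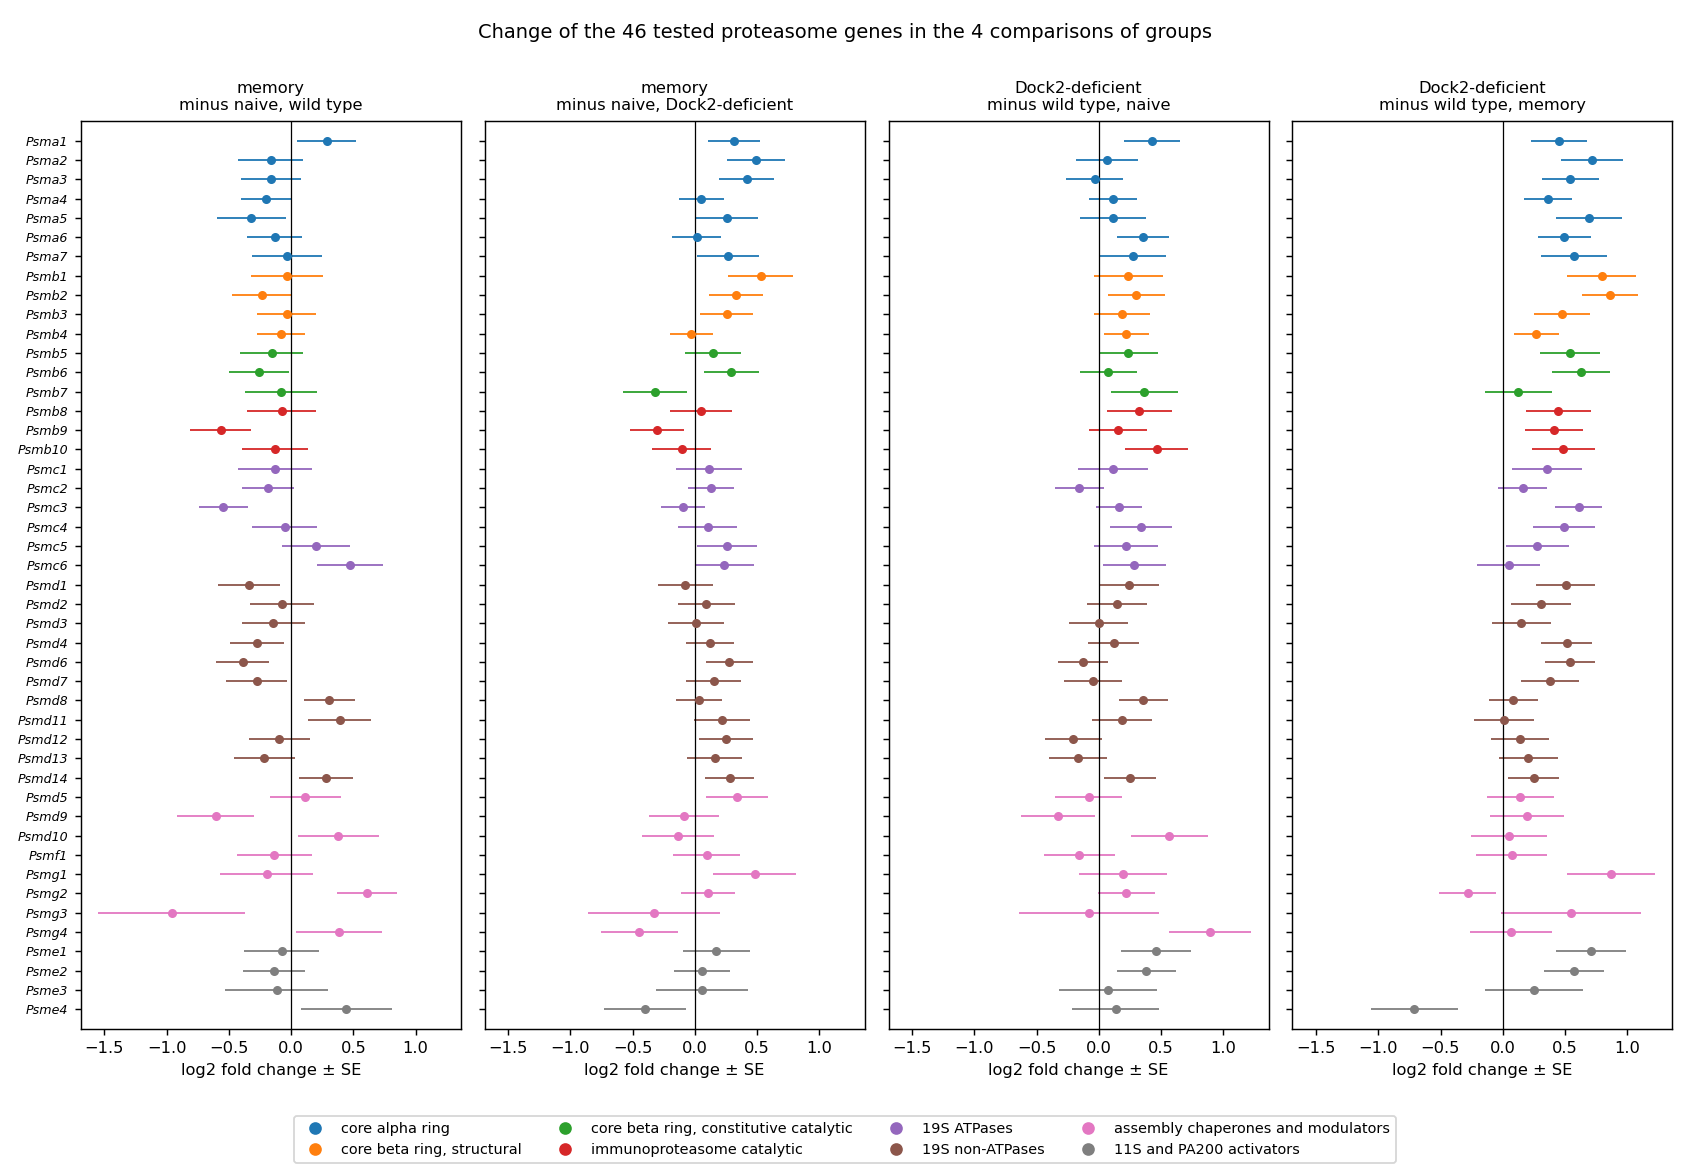
Log2 fold change ± SE of the 46 tested genes in the 4 comparisons of groups, coloured by role. In the panel for Dock2-deficient minus wild type in memory, 44 of 46 points lie to the right of 0; in the panel for memory minus naive in wild type, 11 do, and no point in any panel passed the adjusted threshold.

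The difference between the genotype effects in memory and in naive cells was tested as an interaction: 0 of 46 members passed the adjusted threshold (0.0318% of all genes), and 1, the 19S lid gene Psmd6, passed at an unadjusted p of 0.05 (5.21% of all genes, 2.17% higher and 3.04% lower; 0.66 ± 0.28, limma adjusted p = 0.819). The median interaction was 0.24 over the members, 37 of them above 0 (50.5% of all genes), and 0.01 over all genes, and -0.03 against -0.25 with equal totals without Rn18s-rs5.

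The count of 17 members higher at the unadjusted p depended on the libraries used. Without Dock2-deficient memory library 5, wild-type memory library 2 or both libraries that stood apart, fewer of all genes were higher at that p. More were without wild-type memory library 3. In each of these fits the members' median log2 fold change stayed above that of all genes. The count of members was 7 without Dock2-deficient memory library 5, 9 without wild-type memory library 2 and 11 without wild-type memory library 3. It was 5 without both libraries that stood apart. It was 3 with equal totals without Rn18s-rs5 and 1 with sex as a term, which leaves the single female library of each Dock2-deficient group to set genotype against sex. Measured as the median deviation of the members from their mean over libraries, Dock2-deficient memory library 5 was highest (0.59), followed by Dock2-deficient naive library 4 (0.38), and wild-type naive library 1 was lowest (-0.46). The median deviation of the 82 cytosolic ribosomal protein genes was 1.45, 0.29 and -0.91 in these libraries, the first the highest and the last the lowest of all 18. It was also 1.18 and 0.54 in Dock2-deficient memory libraries 3 and 2 and 0.51 in wild-type naive library 3, where the members were at 0.22, 0.21 and 0.11. The median deviation over all tested genes with a transcript of up to 1000 bases was 0.68 in Dock2-deficient memory library 5, 0.31 in Dock2-deficient naive library 4 and -0.53 in wild-type naive library 1.

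**Figure D4:**
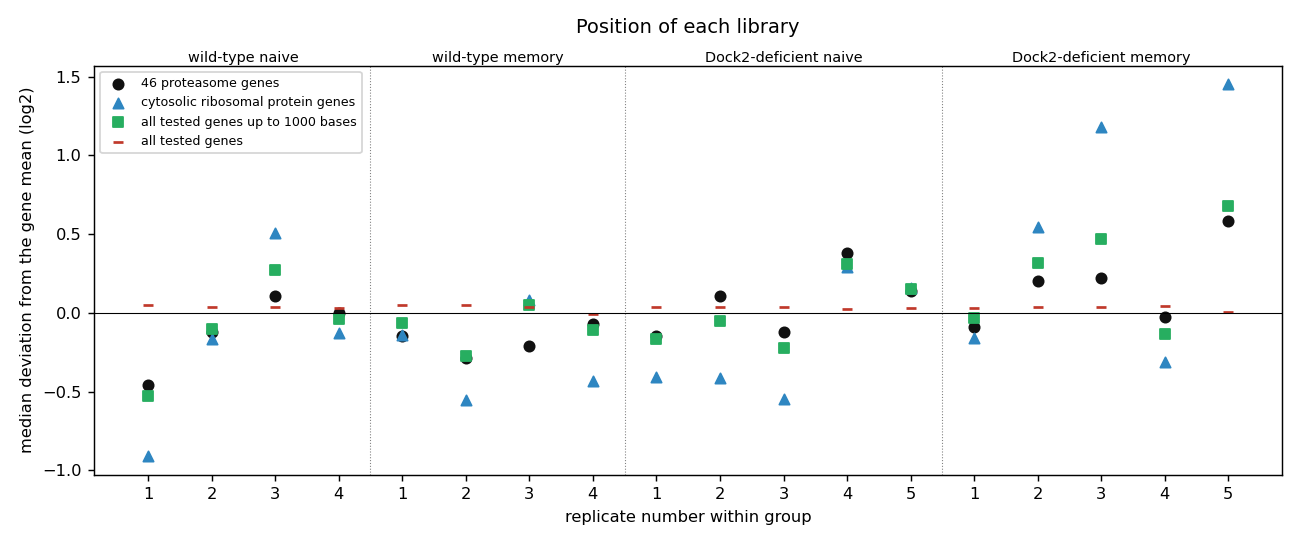
Median deviation from the gene mean (log2) in each of the 18 libraries for the 46 proteasome genes, the cytosolic ribosomal protein genes, all tested genes of up to 1000 bases and all tested genes. Proteasome and short genes lie highest in Dock2-deficient memory library 5 (0.59 and 0.68) and lowest in wild-type naive library 1 (-0.46 and -0.53), whereas the median of all genes lies near 0 in each library.

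Transcript length moved with 3 of the 4 comparisons of groups. The median transcript of the members was 1435 bases, against 2922 for all tested genes. For Dock2-deficient against wild type in memory, the median log2 fold change over all genes was 0.40 for transcripts of up to 1000 bases, 0.22 for those above 1000 and up to 2000, 0.02 for those above 2000 and up to 4000 and -0.29 for those over 4000. The members in the same classes had medians of 0.56 (8 genes), 0.39 (26), 0.22 (10) and -0.28 (2). The members' median lay above that of all genes in each class, by little in the fourth (-0.284 against -0.294), which held only Psmd5 and Psme4. Over all genes the same order held for memory against naive in Dock2-deficient cells (0.23, 0.12, 0.00 and -0.21). The members' medians there were 0.20, 0.12, 0.09 and -0.03. Also for genotype in naive cells the order over all genes held (0.10, 0.08, 0.00 and -0.10), with members at 0.26, 0.22, 0.07 and 0.03. For memory against naive in wild type that order did not hold (-0.04, -0.04, -0.02 and -0.02), with members at -0.15, -0.11, -0.14 and 0.28. The cytosolic ribosomal protein genes had a median of 0.80 for Dock2-deficient against wild type in memory, with 58 of 82 higher at an unadjusted p of 0.05, and the CD8 T cell markers one of 0.51, with 8 of 9 above 0. The summed CD8 T cell markers ranged from 8162 to 9805 in wild-type memory and from 8999.6 to 19114 in Dock2-deficient memory libraries, and the summed natural killer markers, mostly Nkg7, from 1048 to 1424 and from 1137 to 3484. Of the 4 natural killer markers tested, 1 (Nkg7) was above 0 and 3 (Fcer1g, Klrb1c and Klre1) were below, with a median of -0.64, and Klrb1c was lower at an unadjusted p of 0.05 and without overlap. The part of length, library, sex or these other genes in the result was not tested.

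**Figure D5:**
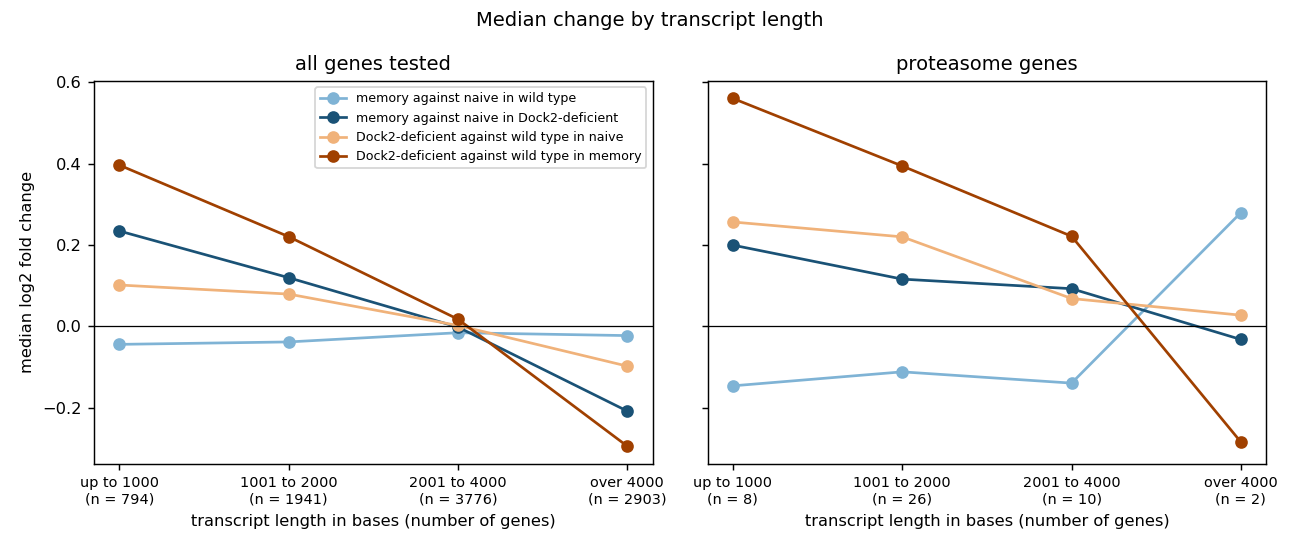
Median log2 fold change by class of transcript length for all tested genes (left) and the proteasome genes (right), one line per comparison. For Dock2-deficient against wild type in memory, the line falls from 0.40 to -0.29 over all genes and from 0.56 to -0.28 over the members, whose last class holds 2 genes.

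Genes that act with the proteasome were followed in lists made for this purpose. Of 16 tested partners outside the Psm family, such as assembly factors and shuttling ubiquitin receptors, 0 passed the adjusted threshold in any comparison, and their median for Dock2-deficient against wild type in memory was 0.03. Pomp, the maturation factor of the core, averaged 86.4 ± 21.5, 88.5 ± 12.6, 92.3 ± 14.8 and 99.7 ± 17.2 in wild-type naive and memory and Dock2-deficient naive and memory libraries (SD). Of 7 tested genes of the Nrf1 pathway, which raises proteasome transcription when the protease is inhibited, 0 passed in any comparison. At an unadjusted p of 0.05, 1 of them was lower in Dock2-deficient than wild-type memory cells: Nfe2l1, which encodes Nrf1, had a log2 fold change of -0.87 ± 0.37 (limma adjusted p = 0.281). The 7 tested genes of ubiquitin and its activating enzymes had no call either, with medians of 0.70 for memory against naive in Dock2-deficient cells and 0.70 for Dock2-deficient against wild type in memory.

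Among genes of interferon control, the receptor chain genes of interferon gamma passed for memory against naive in both genotypes. Ifngr1 was higher in memory (log2 fold change 1.54 in the wild-type and 1.70 in the Dock2-deficient comparison), and Ifngr2 was lower (-3.83 and -4.34). Members known as interferon gamma targets had no call in either comparison. The log2 fold changes of Psmb8, Psmb9, Psmb10, Psme1 and Psme2 for memory against naive were -0.07, -0.56, -0.13, -0.08 and -0.14 in wild-type cells, against 0.05, -0.31, -0.11, 0.17 and 0.06 in Dock2-deficient ones, and none passed. In the genotype contrast of naive cells they were 0.32, 0.15, 0.46, 0.46 and 0.38. Irf1, an interferon-induced transcription factor gene, averaged 199 ± 34.8, 193 ± 28.1, 300.8 ± 72.8 and 347 ± 135 in wild-type naive and memory and Dock2-deficient naive and memory libraries (SD), and its genotype contrasts missed the threshold in naive and memory cells (0.58 and 0.77; limma adjusted p = 0.729 and 0.236). Nlrc5, which drives MHC class I genes, had a log2 fold change of -0.79 ± 0.35 for Dock2-deficient against wild type in memory (limma adjusted p = 0.292).

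Of 14 tested genes of peptide loading beyond the proteasome, 1 passed: Npepps, a cytosolic aminopeptidase that trims peptides, fell from 54.4 ± 19.7 in wild-type naive to 20.6 ± 8.8 in wild-type memory libraries (SD, n = 4 each; log2 fold change -1.39 ± 0.31, limma adjusted p = 0.0137). The call was lost without wild-type memory library 4 or wild-type naive library 3. The transporter genes Tap1 and Tap2, neighbours of Psmb9 and Psmb8 on chromosome 17, had log2 fold changes of -0.28 and -0.27 for memory against naive among wild-type, and of -0.58 and -0.37 among Dock2-deficient cells (limma adjusted p = 0.717, 0.661, 0.181 and 0.371), and no comparison of either passed.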

How the data were processed

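RNA of sorted CD8 T cells was purified (Qiagen RNAeasy) and made into full-length, unstranded Smartseq2 libraries, per the labels' protocols. The submitters' processing notes name bcl2fastq, FastQC, RSEM and mm10. The signal values that the authors deposited, for 46983 genes in 18 libraries, were normalized by them before deposit. They read as RSEM expected counts divided by a library factor: 59.5% to 69.3% of those above 0 were whole reads (tolerance 0.005), so no count model was used. Values were analysed as log2(value + 1), and fold changes are on that scale, which understates changes of low genes. Genes with at least 10 in at least 4 libraries (9437) entered 1 limma (3.58.1, R 4.3.3) fit with a mean per group and a variance trend (residual df 14). Tests were two-sided with Benjamini-Hochberg adjustment over all 9437 genes and a threshold of 0.05. The procedure was tested on simulated data. Gene positions and lengths came from GENCODE M21 (mm10), which held all 48 members. Members, lists and tests were chosen with earlier results of these data known. Values per library are given for the 6 catalytic genes, Psme1, Psme2, Psme3 and, in each comparison of 2 groups, the member with the largest estimate in each direction among those with a mean of at least 50; genes outside the family are named when called or among 9 chosen regulators and transporters. Alternatives were other scalings, filters, pseudocounts, a replicate block, a sex term and leaving out each library. The block was genotype and library number for the memory comparisons and the interaction. For the 2 genotype comparisons it was the number alone, shared by libraries of both genotypes. Some results of the marker and interferon lists are not reported here.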

Additional observations from a re-analysis of the deposited data

Results flagged for a closer look

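Among 100 groups of 4 or 5 libraries examined over 25 genes and summary values, 3 held 1 library far from the others of its group, where chance gives about 1 in 20. Psme1 measured 337.5 in wild-type memory library 2, and the nearest of the other wild-type memory libraries measured 421. Ifngr2 measured 3.32 in wild-type memory library 1, and the nearest measured 1.29. Nfe2l1 measured 134 in wild-type naive library 1, and the nearest measured 43.4.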

How the results depend on the processing

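No member passed the adjusted threshold under any of the 31 alternative settings, 18 of which left out 1 library, in the comparisons run under each: all 5, except that the sex term was fitted for the 2 genotype comparisons and the fit of only the libraries compared gave no interaction; the smallest limma adjusted p of a named member was 0.0545. With equal totals without Rn18s-rs5, the members' median log2 fold change was -0.21 for memory against naive in Dock2-deficient cells (all genes -0.32), 0.15 for Dock2-deficient against wild type in memory (all genes -0.23) and -0.026 for the interaction (all genes -0.25). With sex as a term it was 0.19 for Dock2-deficient against wild type in memory, above that of all genes. In naive cells it was -0.04, below that of all genes. The 17 members higher at an unadjusted p of 0.05 in memory became 3 with equal totals, 10 with the replicate block, 1 with sex as a term, 5 without the 2 libraries that stood apart and 7 to 20 when 1 library was left out. Over all 9437 genes the number higher at that p was 747, and it became 521 with the replicate block and 248 without those 2 libraries. It ranged from 425 to 1006 when 1 library was left out, and was also lower with equal totals. With sex as a term it was not compared, since 1 female library per Dock2-deficient group then sets genotype against sex. Same-numbered naive and memory libraries correlated from -0.25 to 0.30 in their deviations, so the library numbers were not taken as pairs. With the replicate block, 0 members were called in all 5 comparisons. Leaving out 1 library moved the members' median between 0.34 and 0.50 for Dock2-deficient against wild type in memory, 0.08 and 0.25 in naive cells, 0.15 and 0.35 for the interaction, 0.04 and 0.19 for memory against naive in Dock2-deficient cells and -0.25 and -0.03 in wild type. The cause of these shifts was not tested.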
